A study of Mus musculus with 2 samples.

Results

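The proteasome was read through 34 mouse genes on 37 array probes, of 19439 named genes on 31920 gene probes. The members were all genes listed as Psma, Psmb, Psmc or Psmd followed by a number, without the interferon-induced subunits Psmb8 and Psmb9. They comprised 16 genes of the core particle (Psma and Psmb), 15 genes of the regulatory particle (Psmc and Psmd) and 3 chaperones of its assembly that carry Psmd names (Psmd5, Psmd9 and Psmd10). In all, 33 of the 34 were above background in every channel. The exception was Psma8, an alpha subunit known from the testis, which was above background in none. No probe carried the name Psmb11, Psmc1 or Psmd11.

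The proteasome degrades proteins marked with ubiquitin. Its core particle is a barrel of stacked rings, in which alpha subunits form the gate and beta subunits the chamber with the proteolytic sites. The regulatory particle has a base, whose ATPases unfold substrates, and a lid, which removes ubiquitin before the substrate enters. The transcription factor Nfe2l1 raises the mRNAs of the subunits together when proteasome activity is short, through antioxidant response elements in their promoters. In regenerating liver the proteasome is known for the timed removal of cyclins and cell cycle inhibitors.

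RNA from the liver of Wip1 KO mice and of wild-type (WT) mice was hybridised together on 2-colour oligonucleotide arrays. The livers were taken 24 h or 36 h after partial hepatectomy, in which some lobes are cut out and those left grow to replace them. All mice were 3 months old. Wip1 is the phosphatase encoded by Ppm1d, which acts on p53 and on DNA damage kinases. Each time had 1 array, with Wip1 KO labelled with Cy5 and WT with Cy3. The labels do not state the kind of knockout allele, the sex or the number of animals behind a channel. No test and no p-value was possible without replicates, and precision is limited by how many arrays there were. Genotype cannot be told apart from dye, nor time from array.

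Levels are log2 values of background-corrected, normalised spot intensity, and members were compared within a probe, not between probes. Control genes spotted 48 times each had an SD within the array of 0.115 in the log2 ratio of Wip1 KO over WT at 24 h and 0.154 at 36 h. For 36 h over 24 h this SD was 0.118 in WT and 0.150 in Wip1 KO. Different probes of 1 gene differed more, with SDs of 0.261, 0.260, 0.329 and 0.375 in the same order. These spreads contain no variation between animals. Each control spot SD is taken about the mean of its gene, and those means were not all near 0. At 24 h the mean log2 ratios of Wip1 KO over WT were 0.63 for Actb, 0.45 for Rpl5, -0.056 for Gapd and -0.070 for Ldha. At 36 h they were -0.038, -0.19, 0.039 and -0.36 in the same order. Between 31.1% and 41.4% of gene probes were above background in a channel, and no member was saturated. Ppm1d itself was below background in all 4 channels, so the arrays do not check which channel holds the KO.

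At 24 h the proteasome genes as a group stood lower in Wip1 KO liver than in WT. Of 15 measured core genes 14 were below WT, and of 15 measured regulatory particle genes 14 were. The median log2 ratio was -0.18 for the core particle (1.13-fold lower) and -0.31 for the regulatory particle (1.24-fold lower), against 0.014 over all 8018 genes measured at that time. Among genes whose brightness lay between the quartiles of the members, the median was -0.016. The differences were small for each gene. None of 33 members was at least 1.5-fold higher or lower, where 6.68% and 4.27% of all genes were. At a smaller size chosen after the values were seen, 10 members were at least 1.25-fold lower and none at least 1.25-fold higher, where 15.1% and 18.7% of all genes were. Above 0 were 3 of 33 members, against 51.8% of all genes. The median of both particles stayed below 0 under every alternative processing tried.

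At 36 h the proteasome genes lay close to WT. The median log2 ratio was -0.069 for the core particle and 0.058 for the regulatory particle, against 0.033 over 7460 genes. The core median changed its sign to 0.058 when arrays were centred on their medians in place of loess. Above 0 were 7 of 15 core and 10 of 15 regulatory particle genes, together with 1 chaperone 18 of 33 members, where 54.0% of all genes were. No member was 1.5-fold apart, against 8.71% of genes higher and 5.8% lower. Psmb3 alone was at least 1.25-fold lower and no member 1.25-fold higher, where 16.2% and 21.5% of all genes were.

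**Figure D1:**
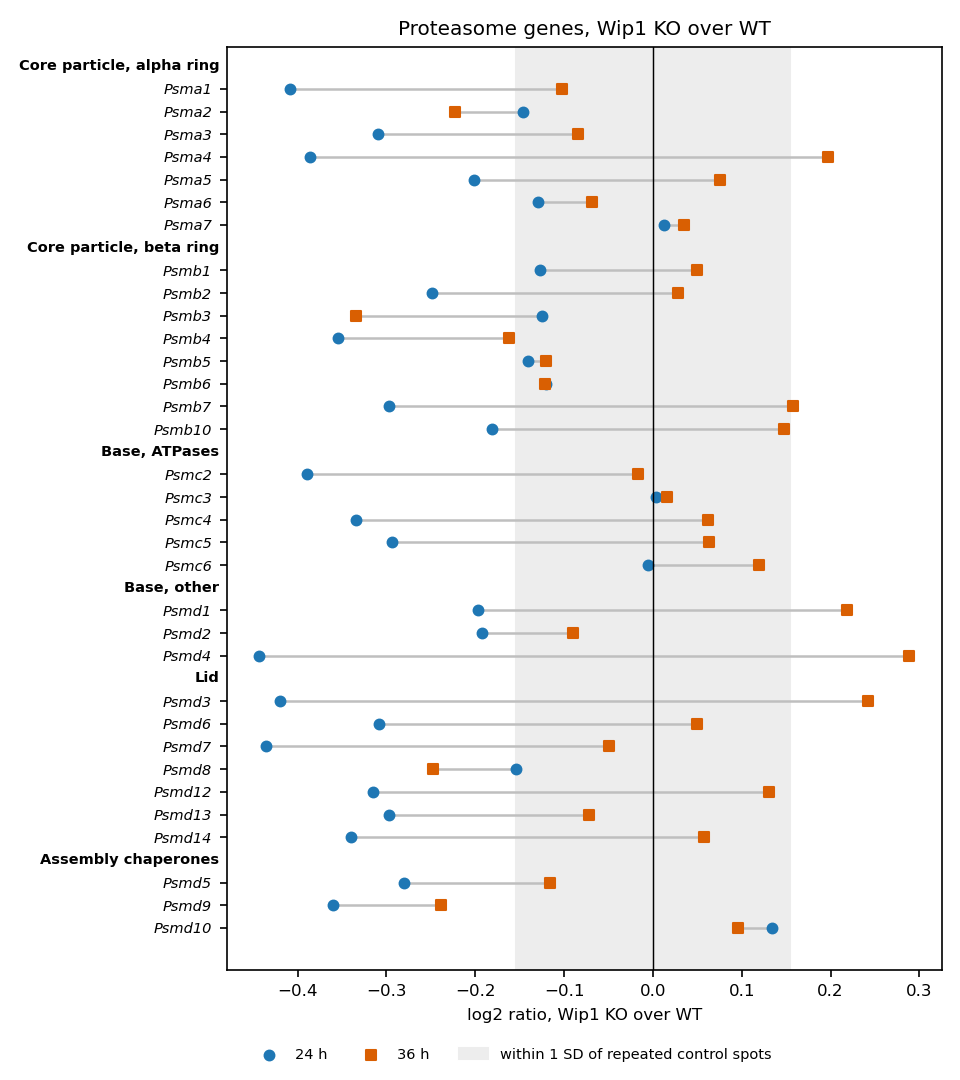
Log2 ratio of Wip1 KO over WT for the 33 measured proteasome genes at 24 h (circles) and 36 h (squares), 1 array each, grouped by role. The grey band spans 0.154 on either side of 0, the larger SD of repeated control spots of both arrays. The circles lie left of 0 in 30 of 33 genes and the squares in 15 of 33.

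Among the alpha subunits, which gate the core, the median log2 ratio was -0.20 at 24 h and -0.069 at 36 h over 7 measured genes. Psma1 was furthest below WT at 24 h. Its log2 level was 11.96 in Wip1 KO and 12.37 in WT at 24 h, and 12.19 and 12.30 at 36 h, so the KO was the lower channel both times (ratios -0.41 and -0.10). Psma4 crossed over between the times. Its log2 level was 12.09 in KO and 12.47 in WT at 24 h, then 12.41 and 12.21 at 36 h (ratios -0.39 and 0.20). Psma3 was dim, with log2 levels of 8.57 and 8.87 at 24 h and 8.89 and 8.97 at 36 h in KO and WT (ratios -0.31 and -0.085). Psma5 had levels of 12.48 in KO and 12.68 in WT at 24 h and of 12.60 and 12.52 at 36 h. Its ratio went from -0.20 to 0.075, the second within the control spot SD. Psma2 was the alpha subunit furthest below WT at 36 h, with levels of 11.99 and 12.14 at 24 h and 11.95 and 12.18 at 36 h in KO and WT (ratios -0.15 and -0.22). Psma7 was level between the genotypes, with 11.94 and 11.93 at 24 h and 12.08 and 12.05 at 36 h. Its ratios of 0.012 and 0.035 became -0.18 and -0.21 in the authors' deposited table. Psma6 had ratios of -0.13 and -0.069.

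The beta subunits had a median log2 ratio of -0.16 at 24 h, with 8 of 8 below 0, and of -0.046 at 36 h, with 4 of 8 below 0. The 3 proteolytic subunits of the standard core did not share a pattern. Psmb5, the chymotrypsin-like subunit, had log2 levels of 12.66 in KO and 12.80 in WT at 24 h and of 12.75 and 12.87 at 36 h (ratios -0.14 and -0.12). Psmb6, the caspase-like subunit, had levels of 13.09 and 13.21 at 24 h and of 12.99 and 13.11 at 36 h (ratios -0.12 and -0.12). For both, KO was the lower channel on both arrays by an amount near the SD of control spots. Psmb7, the trypsin-like subunit, had levels of 10.90 in KO and 11.20 in WT at 24 h and of 11.49 and 11.33 at 36 h (ratios -0.30 and 0.16). Psmb10, which replaces Psmb7 in the immunoproteasome, likewise went from the lower to the higher channel, with levels of 10.49 and 10.68, then 10.39 and 10.24 (ratios -0.18 and 0.15).

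Of the beta subunits without a proteolytic site, Psmb4 was furthest below WT at 24 h, with levels of 12.22 in KO and 12.58 in WT, and of 12.58 and 12.74 at 36 h (ratios -0.35 and -0.16). Psmb3 had levels of 11.83 in KO and 11.96 in WT at 24 h and of 11.68 and 12.02 at 36 h (ratios -0.12 and -0.33). Its second probe gave -0.055 and 0.14, so the probes took opposite sides at 36 h. Psmb2 went from -0.25 to 0.028 and Psmb1 from -0.13 to 0.049. The second probe of Psmb6 gave -0.31 and -0.15, on the same side as the first. A second, dim probe of Psmb1 was above background in 2 channels only and was not used.

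The ATPases of the base, which unfold the substrate and open the gate, had a median log2 ratio of -0.29 at 24 h and 0.062 at 36 h over 5 genes. Psmc2 had levels of 12.50 in KO and 12.89 in WT at 24 h and of 12.73 and 12.75 at 36 h, which placed the gap between genotypes at 24 h (ratios -0.39 and -0.016). Psmc5 had levels of 11.57 and 11.87 at 24 h and of 11.74 and 11.68 at 36 h (ratios -0.29 and 0.064). Psmc4 went from -0.33 to 0.062. The ring was not uniform. Psmc3 had levels of 12.30 and 12.30 at 24 h and of 12.31 and 12.29 at 36 h, and was the regulatory particle gene nearest to WT (ratios 0.0039 and 0.016). Psmc6 had levels of 12.35 and 12.36 at 24 h and of 12.42 and 12.30 at 36 h (ratios -0.0051 and 0.12).

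In the base outside the ATPase ring, Psmd4 had the lowest ratio of all members at 24 h and the highest at 36 h. It encodes a receptor that binds ubiquitin chains. Its log2 level was 10.00 in Wip1 KO and 10.44 in WT at 24 h, and 10.93 and 10.64 at 36 h (ratios -0.44 and 0.29). In the authors' deposited table the same ratios were -0.72 and 0.075, and under print-tip loess -0.65 and 0.053. Psmd1, a scaffold of the base, had levels of 12.71 in KO and 12.90 in WT at 24 h and of 11.55 and 11.33 at 36 h (ratios -0.20 and 0.22). Psmd2, the other large scaffold, was the lower channel in KO both times, with levels of 11.46 and 11.66, then 11.42 and 11.51 (ratios -0.19 and -0.090).

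The measured lid genes named Psmd were below WT in 7 of 7 at 24 h, with a median log2 ratio of -0.31. Their median stood at 0.050 at 36 h with 4 of 7 above 0. Sem1, a lid protein without a Psmd name, is not counted here and stood above WT at 24 h (0.36). Psmd14, the enzyme that cuts ubiquitin chains from the substrate, had levels of 11.32 in KO and 11.66 in WT at 24 h and of 11.80 and 11.75 at 36 h (ratios -0.34 and 0.058). Its structural partner Psmd7 had levels of 12.59 and 13.02 at 24 h and of 13.02 and 13.07 at 36 h (ratios -0.43 and -0.049). Both stood below WT at 24 h by more than the control spot SD and within it at 36 h. Psmd3, a lid scaffold, went from the lower to the higher channel, with 10.88 in KO and 11.30 in WT at 24 h and 11.62 and 11.38 at 36 h (ratios -0.42 and 0.24). Psmd8 stayed below WT, with levels of 12.85 and 13.01 at 24 h and of 12.83 and 13.08 at 36 h (ratios -0.15 and -0.25). The change in its ratio (-0.093) was smaller than the control spot SD of either array. Psmd13 had levels of 11.07 and 11.37 at 24 h and of 11.25 and 11.32 at 36 h (ratios -0.30 and -0.072). The remaining lid genes Psmd6 (-0.31 and 0.050) and Psmd12 (-0.31 and 0.13) lay within these ranges. The 36 h spot of Psmd6 carried a quality flag other than the usual one.

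The 3 assembly chaperones help the base ATPases to join and leave before the particle is complete. Psmd5 and Psmd9 stood below WT at both times, with ratios of -0.28 and -0.12 and of -0.36 and -0.24. Psmd10, also known as gankyrin, was above WT with 0.13 and 0.096. The sign of Psmd10 depended on the processing, with -0.057 and -0.15 in the authors' deposited table.

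The promoters of members were compared because the genes stood below WT together at 24 h. Promoters from RefSeq (build GRCm38.p6, 250 bases before to 50 after the start) were found for 27 of the 34 members by symbol. Psma8, Psmb1, Psmb2, Psmb7, Psmc3, Psmd3 and Psmd7 had no match. The letters TGACNNNGC, the core of the antioxidant response element, stood on either strand in 5 of 27 members (18.5%), and in 12.4% of 32851 mouse promoters. The 5 were Psmb5, Psmb6, Psmc6, Psmd12 and Psmd9. The letters CCAAT, the box bound by NF-Y, stood on either strand in 10 of 27 (37.0%), and in 37.4% of all promoters. These member shares are by gene, and the shares of all promoters are by promoter. Counted by promoter, members had TGACNNNGC in 5 of 29 (17.2%) and CCAAT in 10 of 29 (34.5%). The 4 subunit promoters with TGACNNNGC are printed with the match in capitals, and then that of Psmd4, the member with the widest swing between the times, with its 3 CCAAT matches in capitals. The Psmb5 promoter (chr14:54617946-54618245, minus strand) has the match 47 bases before the start. In Psmb6 (chr11:70525107-70525406, plus strand) it begins 9 bases before the start. Psmc6 (chr14:45329574-45329873, plus strand) has it 227 bases before, and Psmd12 (chr11:107479278-107479577, plus strand) 247 bases before, both on the opposite strand. The Psmd4 promoter (chr3:95042565-95042864, minus strand) holds no TGACNNNGC.
Psmb5: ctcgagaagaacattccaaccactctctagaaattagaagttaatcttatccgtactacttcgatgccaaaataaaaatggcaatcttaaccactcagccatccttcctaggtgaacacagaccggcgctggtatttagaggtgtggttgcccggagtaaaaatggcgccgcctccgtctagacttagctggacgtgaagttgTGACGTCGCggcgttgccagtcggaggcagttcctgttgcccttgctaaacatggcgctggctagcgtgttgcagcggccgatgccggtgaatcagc
Psmb6: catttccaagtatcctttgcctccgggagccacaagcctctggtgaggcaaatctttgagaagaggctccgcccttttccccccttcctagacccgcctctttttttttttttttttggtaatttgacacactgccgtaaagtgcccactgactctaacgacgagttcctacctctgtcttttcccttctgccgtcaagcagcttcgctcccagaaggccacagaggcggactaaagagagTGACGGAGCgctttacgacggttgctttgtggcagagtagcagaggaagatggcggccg
Psmc6: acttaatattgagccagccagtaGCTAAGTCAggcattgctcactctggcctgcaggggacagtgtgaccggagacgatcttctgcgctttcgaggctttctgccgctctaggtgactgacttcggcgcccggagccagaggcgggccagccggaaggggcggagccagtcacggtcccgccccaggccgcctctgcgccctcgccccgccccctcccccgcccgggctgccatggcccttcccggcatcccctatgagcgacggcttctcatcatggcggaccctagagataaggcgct
Psmd12: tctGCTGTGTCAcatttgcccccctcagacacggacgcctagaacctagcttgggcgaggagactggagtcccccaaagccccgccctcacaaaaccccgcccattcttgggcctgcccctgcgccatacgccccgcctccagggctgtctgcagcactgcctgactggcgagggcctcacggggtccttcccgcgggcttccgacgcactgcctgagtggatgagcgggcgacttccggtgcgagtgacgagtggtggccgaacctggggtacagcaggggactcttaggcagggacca
Psmd4: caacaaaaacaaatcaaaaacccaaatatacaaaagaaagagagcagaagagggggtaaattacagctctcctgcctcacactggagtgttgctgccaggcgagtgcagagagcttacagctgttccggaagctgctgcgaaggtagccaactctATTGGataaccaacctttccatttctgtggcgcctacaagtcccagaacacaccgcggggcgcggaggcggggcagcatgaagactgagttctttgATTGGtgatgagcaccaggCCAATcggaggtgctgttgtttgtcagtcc

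For the 4 subunits with TGACNNNGC the log2 ratios at 24 h ran from -0.31 to -0.0051 with a median of -0.13. The 20 other measured subunits with a promoter had a median of -0.30. At 36 h the medians were -0.0003 and 0.0093. This split leaves out the chaperone Psmd9, which has the letters and stood at -0.36 at 24 h. It also uses the brighter probe of Psmb6 (-0.12), where the second gave -0.31. Split by CCAAT, the median at 24 h was -0.31 in 9 subunits with the letters and -0.20 in 15 without, and at 36 h -0.069 and 0.062. These are descriptions of few genes, and a match of letters is not a binding site.

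The genotype ratio moved upward from 24 h to 36 h in most members. This change contains the 24 h ratio, which lay below 0 in most members, so it is not evidence separate from that ratio. The ratio at 36 h minus that at 24 h was above 0 in 12 of 15 core genes, 14 of 15 regulatory particle genes and 28 of 33 members, where 53.2% of 7025 genes were. Its median was 0.19 for the core particle and 0.37 for the regulatory particle, against 0.031 over all genes. Psmd4 (0.73), Psmd3 (0.66) and Psma4 (0.58) moved furthest upward, and Psmb3 (-0.21), Psmd8 (-0.093), Psma2 (-0.076), Psmd10 (-0.039) and Psmb6 (-0.0010) did not move upward. For Psmb3 and Psmb6 this depends on the probe, since the second probe went from -0.055 to 0.14 for Psmb3 and from -0.31 to -0.15 for Psmb6. With the mean over probes 13 of 15 core genes were above 0. Over all alternatives the core median ran from 0.13 to 0.40 and the regulatory particle median from 0.30 to 0.57. The upper ends came from centring on medians, which also moved the median of all genes to 0.22.

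**Figure D2:**
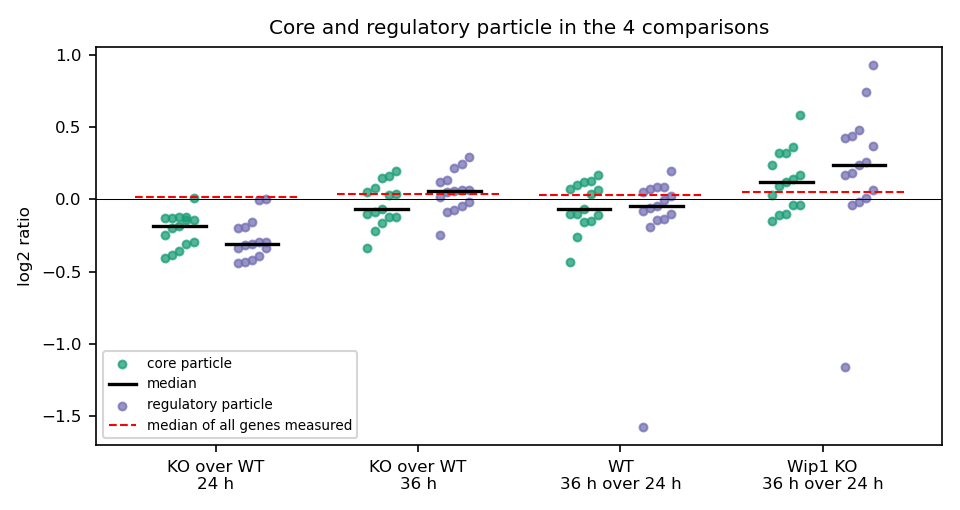
Log2 ratios of the 15 core (green) and 15 regulatory particle genes (purple) in the 4 comparisons, 1 point per gene. Black bars are medians of the particle and red dashed lines medians of all genes measured. At 24 h the medians of Wip1 KO over WT are -0.18 and -0.31, and for 36 h over 24 h in Wip1 KO they are 0.12 and 0.24.

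In WT liver the proteasome genes differed little between 24 h and 36 h. The median log2 ratio of 36 h over 24 h was -0.070 for the core and -0.045 for the regulatory particle, against 0.027 over 8587 genes. Both medians changed sign, to 0.034 and 0.041, when each channel was centred on its own median. Above 0 were 16 of 33 members, where 53.9% of all genes were. Only Psmd1 was at least 1.5-fold lower and no member 1.5-fold higher, where 5.43% and 5.35% of all genes were. At 1.25-fold, Psmd10 was higher and Psmd1 and Psmb10 were lower, against 16.8% and 13.9% of genes.

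Psmd1 stood apart from every other member, with a log2 ratio of 36 h over 24 h of -1.57 in WT (2.98-fold lower) and -1.16 in Wip1 KO (2.23-fold lower). Its single spot carried a quality flag other than the usual one at 36 h, and the spot is left out where only unflagged spots are used. In WT the core members furthest from 0 were Psmb10 (-0.44), Psma4 (-0.26) and Psma5 (-0.15) below, and Psmb4 (0.17), Psmb7 (0.13) and Psma7 (0.12) above. Of the regulatory particle, Psmc5 (-0.19) and Psmd2 (-0.14) lay below, and Psmd4 (0.20), Psmd14 (0.084) and Psmd3 (0.082) above. Apart from Psmd1 and Psmb10, every measured member lay closer to 0 than the SD of 0.329 between probes of the same gene.

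In Wip1 KO liver the regulatory particle genes stood higher at 36 h than at 24 h, and the core particle genes less so. The median log2 ratio was 0.12 for the core particle and 0.24 for the regulatory particle, against 0.052 over 7113 genes. The core median lay within the control spot SD of 0.150. Above 0 were 10 of 15 core genes (66.7%), 12 of 15 regulatory particle genes (80.0%) and 3 of 3 chaperones. Together these were 25 of 33 members, where 55.1% of all genes were above 0. This comparison shares the 24 h KO channel with the genotype ratio at 24 h, so the 2 are not separate evidence. Psmd4 and Psmd3 were at least 1.5-fold higher and Psmd1 at least 1.5-fold lower, where 10.4% and 9.78% of all genes were. At 1.25-fold 8 members were higher and 1 lower, 24.2% and 3.03% of the members, against 25.6% and 19.7% of genes. The share higher was therefore close to that of all genes, and the share lower was below it.

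Psmd4 had the highest ratio of 36 h over 24 h in Wip1 KO with 0.93 (1.90-fold), followed by Psmd3 with 0.74 (1.67-fold). Psmb7 at 0.58 lay just under the 1.5-fold limit of 0.585. Psmd14 stood at 0.48, Psmd7 at 0.44, Psmc4 at 0.42, Psmd12 at 0.37, Psmb4 at 0.36 and Psma3 at 0.32. The lid genes named Psmd had a median of 0.37, the ATPases 0.17, the alpha ring 0.14 and the beta ring 0.059. Psmb3 (-0.15), Psmb10 (-0.11), Psmb6 (-0.10), Psma2 (-0.041), Psma6 (-0.039), Psmd2 (-0.038) and Psmd8 (-0.022) were below 0 beside Psmd1. The direction for Psmb3 and Psmb6 rests on the probe. The second probe of Psmb3 gave 0.19 in Wip1 KO, and that of Psmb6 gave 0.24 in WT and 0.41 in Wip1 KO where the first gave -0.10 in both. All 3 chaperones were above 0 in both genotypes, with medians of 0.15 in WT and 0.28 in Wip1 KO.

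**Figure D3:**
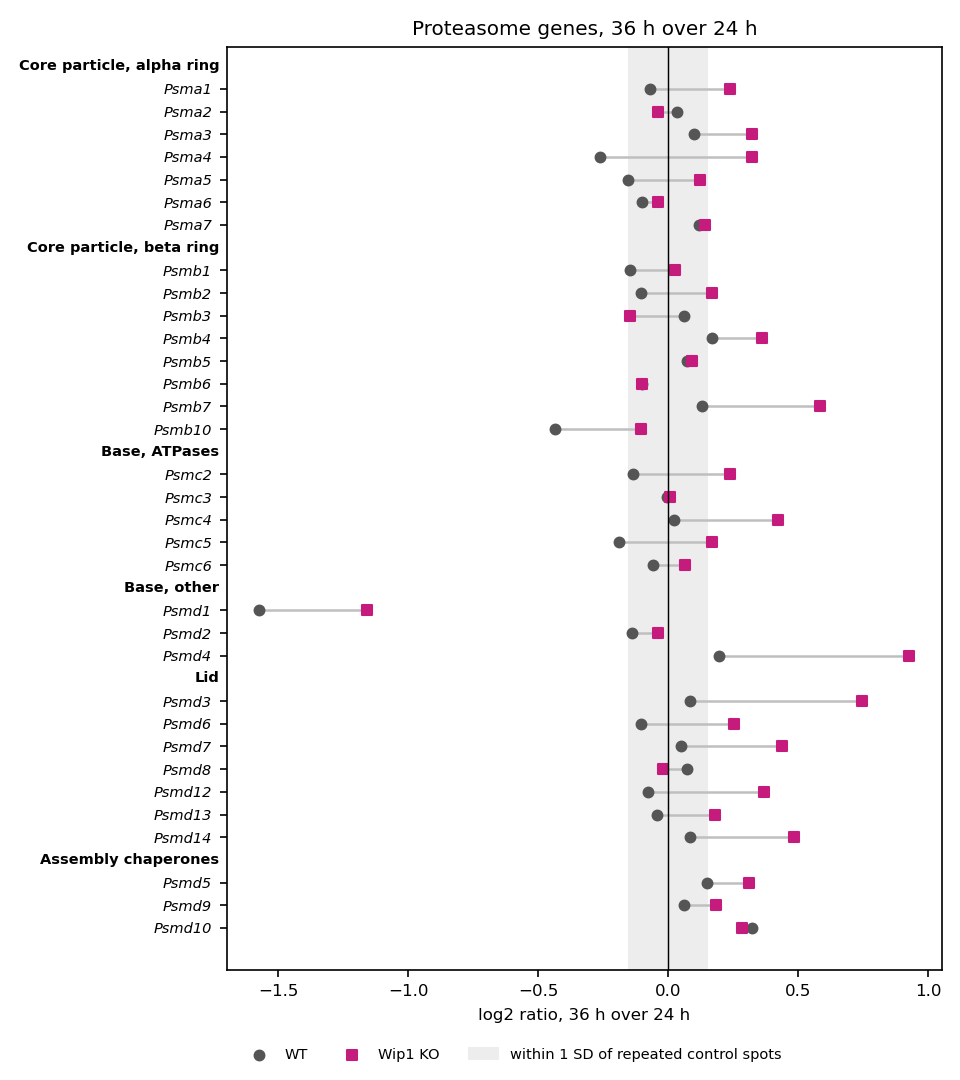
Log2 ratio of 36 h over 24 h for the 33 measured proteasome genes in WT (circles) and Wip1 KO (squares), 1 channel per time. The grey band spans 0.150 on either side of 0, the larger SD of repeated control spots. In Wip1 KO 25 genes lie right of 0 and in WT 16, and Psmd1 lies at -1.57 in WT and -1.16 in Wip1 KO.

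**Figure D4:**
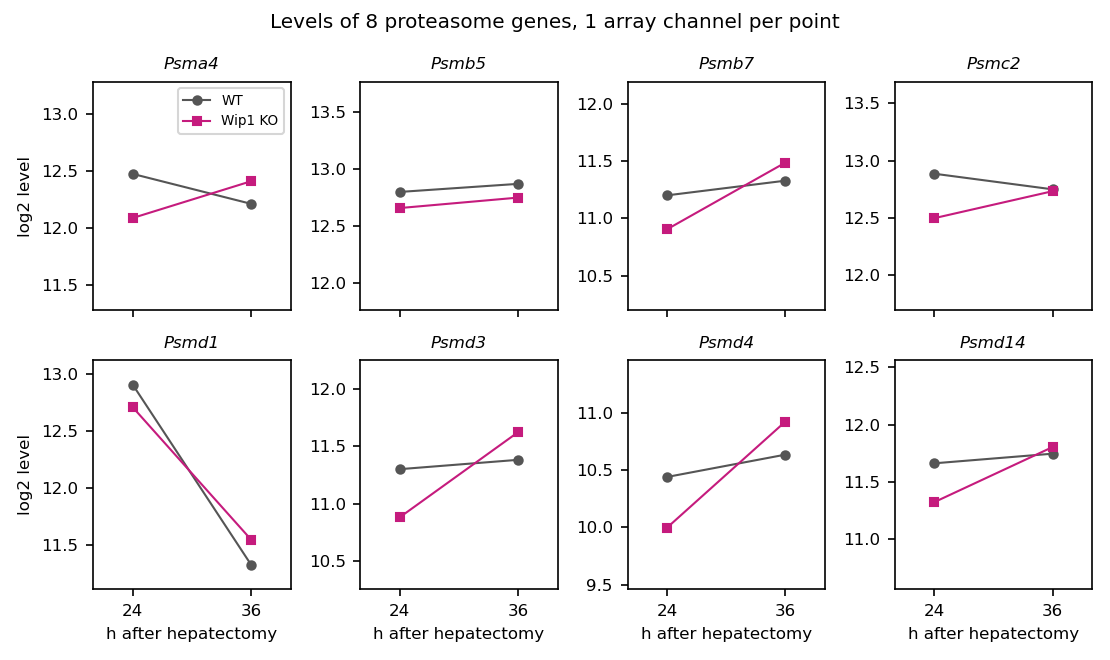
Log2 levels of 8 proteasome genes at 24 h and 36 h in WT (circles) and Wip1 KO (squares), 1 array channel per point, each panel spanning 2 log2 units. The KO point of Psma4, Psmb7, Psmd1, Psmd3, Psmd4 and Psmd14 lies below WT at 24 h and above it at 36 h, and that of Psmb5 and Psmc2 lies below WT at both times.

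Proteins around the proteasome did not follow the subunits as a list. Of 10 measured activators, assembly factors and attached proteins 4 were below WT at 24 h, with a median log2 ratio of 0.062, and the medians were 0.033 at 36 h, 0.025 over time in WT and -0.024 in Wip1 KO. Adrm1, a ubiquitin receptor that sits on the base, was the 1 member at least 1.5-fold apart. Its log2 level was 9.78 in KO and 10.40 in WT at 24 h and 10.49 and 10.48 at 36 h (ratios -0.62 and 0.0093), and 36 h over 24 h in Wip1 KO was 0.71. The others below WT at 24 h were the assembly factors Psmg1 (-0.34), Psmg2 (-0.19) and Psmg3 (-0.47). They were below WT at 36 h too (-0.17, -0.26 and -0.28). The remaining 6 of the 10 were above WT at 24 h. Of these Sem1, a small lid protein listed under an older name, stood at 0.36 at 24 h and -0.21 at 36 h.

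Of the regulators of proteasome genes, 4 were measured, with medians of 0.11, -0.16, 0.42 and 0.27 in the 4 comparisons. Nfe2l1 had levels of 10.62 in KO and 10.96 in WT at 24 h and of 11.14 and 11.06 at 36 h (ratios -0.34 and 0.080), and stood 0.52 higher at 36 h than at 24 h in Wip1 KO. Nfe2l2, which drives antioxidant genes, was the lower channel in KO at both times (-0.38 and -0.39). The small Maf partner Maff changed sides, with 0.77 at 24 h and -0.85 at 36 h, and 0.69 over time in WT against -0.93 in Wip1 KO. Mafg was 0.61 higher at 36 h in WT.

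The ubiquitin list, with 19 genes measured at 24 h and 18 in the other comparisons, had medians of -0.028, -0.096, 0.056 and 0.020. Rad23b, a shuttle that carries ubiquitylated proteins to the proteasome, was below WT at both times (-0.64 and -0.72). Ube2c, a conjugating enzyme of the mitotic ubiquitin ligase, stood at -1.35 at 36 h and at 1.53 over time in WT. Others 1.5-fold apart included Ube3c (-0.83) and Rps27a (-0.73) at 36 h, and Ube3c (1.01), Ube2n (0.97) and Ube2s (0.64) over time in WT. Over time in Wip1 KO they included the autophagy receptor Sqstm1 (0.88) and Ube2n (0.81).

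The immunoproteasome and antigen processing list, with 7 to 9 measured genes, had medians of -0.087, 0.30, -0.28 and 0.045. Psmb9 was lower in KO at both times (-0.29 and -0.40) and lower at 36 h in WT (-0.64) and in Wip1 KO (-0.75), while Psmb8 stayed within 0.17 of 0 in all 4 comparisons. Tap1, the peptide transporter, was at -0.71 at 24 h, and the class I genes B2m (0.65) and H2-K1 (0.60) were above WT at 36 h.

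Cell type markers moved between the channels too. All 10 macrophage and Kupffer cell markers were above background in every channel, with 9 of 10 below WT at 24 h (median -0.47) and 10 of 10 above 0 from 24 h to 36 h in Wip1 KO (median 0.84). The log2 of their summed linear intensity, which adds up different probes within a channel, was 14.51 in KO and 15.07 in WT at 24 h, and 15.28 and 15.10 at 36 h. All 9 hepatocyte markers on the array were above background in every channel, with medians of 0.43 at 24 h and 0.89 at 36 h and log2 sums of 17.65, 17.21, 17.95 and 17.09 in the same order. Stellate cell markers were above WT at 24 h (median 1.27 of 6) and below at 36 h (-0.45), and so were bile duct markers (0.90 of 6 and -0.51 of 4). The endothelial medians were 0.035 and 0.41 of 7 genes. Those of neutrophils were 0.11 and -0.40 of 4 genes, of which 2 were above and 2 below WT at 24 h. Those of erythroid cells were 0.93 and -0.50 of 3 genes, of which Alas2 stood at 1.76 at 36 h and the other 2 below WT. Of 10 lymphocyte markers 1 to 4 were above background in a channel. In bulk liver, fewer cells of a type and less RNA per cell cannot be told apart. At 36 h the Y-linked Ddx3y was 1.40 higher in KO than in WT, against 0.086 at 24 h. Then too the Y-linked Kdm5d was 0.80 higher, the male-biased Elovl3 5.71 higher, and the lowest probe of the female-biased A1bg stood at -6.40. Neither probe of the Y-linked Eif2s3y was above background in both channels at 36 h. Over time Ddx3y stood at 1.98 in Wip1 KO and 0.66 in WT, and the lowest A1bg probe at 0.16 and 4.51. Sex is not in the labels and cannot be told apart from genotype or time here. The part of these differences in the proteasome values was not tested.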

How the data were processed

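Livers of Wip1 KO and WT mice at 24 h and 36 h after partial hepatectomy were measured on 2 arrays with 4 channels. Per the labels, the RNA was extracted with Trizol and labelled by reverse transcription. The deposited scanner files hold raw foreground and background intensity per spot at 635 nm and 532 nm, which the authors did not normalise per the file headers. Per the file headers each spot also has a deposited flag, a quality score that is not explained there. The authors' deposited table gives Wip1 KO over WT as a ratio on a linear scale by numbered row, normalised by a method not given in the sources used here. Its rows were matched to the probes by an order found by its agreement with the scanner ratios (r of 0.971 at 24 h and 0.974 at 36 h, and 0.0322 and 0.0593 when shifted by 1 row).

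Median intensity was corrected by normexp with an offset of 50 and normalised by loess within arrays and Aquantile between arrays, with 1776 control spots at weight 0 (limma 3.58.1, R 4.3.3). Levels are log2. A gene was measured where foreground exceeded background by more than 2 background SDs in both channels compared, and of several probes the brightest was used. Names were updated with RefSeq gene symbols. Medians and counts used Python 3.11.15, numpy 2.4.6 and pandas 2.3.3, and figures matplotlib 3.10.9. The normalisation was tested by changing gene probes of the 24 h array by known folds in the KO channel and reading the genotype ratio.

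Counts at 1.5-fold and 1.25-fold are rules of size, not tests. Named are, in each comparison and particle, the 3 highest and 3 lowest members, the proteolytic subunits, Psmd4 and Psmd14, members whose probes disagree, and up to 4 members of each other list at least 1.5-fold apart. Nfe2l1, Nfe2l2, Sem1, Psmg1, Psmg2, Psmg3, Psmb8 and the genes of the sex chromosomes and sex bias were named beside this rule, after their values were seen. The members and lists were chosen with earlier results of these data known. One gene of the ubiquitin list that the rule names is not reported here.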

Additional observations from a re-analysis of the deposited data

Results flagged for a closer look

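In 5 members the ratio of Wip1 KO over WT lay below 0 at 24 h and above 0 at 36 h, each time by more than the SD of repeated control spots. With 1 array per time the difference between the times was not tested. The share of all genes that cross 0 by this rule was not counted, so the 5 cannot be set beside it. At 36 h only Psmd4 also passed the larger SD of 0.260 between probes of the same gene. The log2 ratio at 36 h minus that at 24 h was 0.73 for Psmd4, the ubiquitin receptor of the base (from -0.44 to 0.29), and 0.66 for the lid scaffold Psmd3 (from -0.42 to 0.24). For Psmd4 the 36 h ratio fell within the control spot SD of 0.154 under print-tip loess (0.053) and in the authors' deposited table (0.075), which ends this pattern for it there. The same difference was 0.58 for the alpha subunit Psma4 (from -0.39 to 0.20) and 0.45 for the trypsin-like subunit Psmb7 (from -0.30 to 0.16). Their 36 h ratios were just under that SD with plain background subtraction (0.151 and 0.144), and that of Psmb7 also with no background correction (0.149). For the base scaffold Psmd1 it was 0.42 (from -0.20 to 0.22), on a spot that carried a quality flag other than the usual one at 36 h. No member showed the opposite order by the same measure.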

How the results depend on the processing

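Of the medians and counts of the particles under the alternatives, 170 stayed within the control spot SD or within 1.5 times the count, 6 moved and none that was past a limit changed sign. Of single members 1338 stayed and 42 moved. Both tallies include alternatives that could not move a measured member, so they overstate how firm the values are. All measured members were above background in every channel, so requiring this changed nothing, and dropping the filter only added Psma8. The mean over probes could alter only Psmb1, Psmb3 and Psmb6, and the setting on flags only left spots out. Under median centring in place of loess the regulatory particle median at 24 h was -0.43, while the median of all genes went to -0.11, and 4 members in place of 2 were at least 1.5-fold higher from 24 h to 36 h in Wip1 KO (Psmb7 and Psmd14 joined). Median centring also moved the median of all genes in that comparison to 0.15. At 24 h 1 member in place of 0, Psmd4, was at least 1.5-fold lower under print-tip loess (-0.65) and in the authors' deposited table (-0.72). With only spots of the usual flag, an alternative added after the values were seen, 0 members in place of 1 were at least 1.5-fold lower over time in WT and in Wip1 KO, since this leaves out Psmd1. Over all settings the medians at 24 h ran from -0.28 to -0.16 for the core and from -0.43 to -0.29 for the regulatory particle, and over time in Wip1 KO from 0.092 to 0.22 and from 0.20 to 0.34. At 36 h they ran from -0.12 to 0.058 and from 0.025 to 0.16, and over time in WT from -0.17 to 0.034 and from -0.15 to 0.041. No member was above background in 1 channel of a comparison only, so setting such genes at a bound left the values as they were. No paired analysis was possible because each group had 1 sample, and for the same reason no replicate could be left out.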
